A study of Mus musculus with 13 samples.

Results

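Pericentral hepatocytes line the outflow side of the liver lobule, around the central vein. The cells described here are those just outside the rim of Glul-rich cells that borders the vein. In each liver section, cells with at least 100 transcript counts were ranked by the share of Cyp2e1 and by the share of Pck1 in their counts, and the difference of the ranks was taken. The 20% of cells with the highest difference were kept, without the 5% of cells with the highest Glul share, which are called the Glul rim. This gave 18897 pericentral cells out of 122974 cells with enough counts and 131221 cells in all, between 652 cells (section 2 at 24 h) and 2368 cells (section 2 at 14 d) per section. Because the cells were chosen by their measured Cyp2e1, Pck1 and Glul shares, their values are given as a description. They stayed in the tables fitted over time, where Cyp2e1 enters some counts of genes past the threshold. Nothing is read from those calls, and the counts are also given without the 3 genes.

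Sections of liver from male C57BL/6 mice, 2 months old per the labels, were imaged with Molecular Cartography, which locates and counts single transcripts of a chosen panel in the tissue, here of 100 genes. The livers regrew after partial hepatectomy, in which 2/3 of the liver is cut away, and the regrown lobes were frozen and sectioned. Of the 13 sections, 2 each were taken at 0 h, 24 h, 48 h and 72 h after surgery, 3 at 14 d, and 1 each at 3 mo and at 6 mo, with 0 h as the baseline. No label states that sections came from separate animals, so p-values measure the spread between these sections, which may be technical, and none says whether the age holds at surgery or at harvest, so that at 3 mo and 6 mo age and time after surgery cannot be told apart.

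As background, hepatocytes divide their work by position. Those near the central vein are kept in their state by Wnt and R-spondin signals from the endothelium of the vein, and carry drug-metabolizing cytochromes such as Cyp2e1 and Cyp1a2, whereas those near the portal vein carry gluconeogenesis and urea cycle enzymes such as Pck1, Cps1 and Arg1. The innermost central layer makes glutamine through Glul. After partial hepatectomy the remaining hepatocytes enter the cell cycle while the liver keeps up its metabolism.

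Median counts per pericentral cell ran from 310 at 6 mo to 656 in section 1 at 14 d. The Cyp2e1 share of all counts of the pericentral cells was 68.6% and 63.3% in the 0 h sections, 31.7% and 43.4% at 24 h, 31.0% and 25.6% at 48 h, and 63.7% and 56.3% at 72 h. It was 48.3%, 47.9% and 49.2% at 14 d, 64.4% at 3 mo and 64.4% at 6 mo. The share was thus lowest at 24 h and 48 h, so that one gene's share of the total moved the shares of all others. For the main genes below, counts per cell are therefore given beside the scaled change. Pck1 held 1.22% (3 mo) to 7.14% (section 1 at 24 h) of the counts, and Glul held 0.224% (section 2 at 72 h) to 2.73% (section 2 at 48 h). Cells just inside the limit of the rank difference carried 16.6% to 63.0% Cyp2e1 across the sections, and cells just outside it carried 13.9% to 61.5%. The rule ranks by Cyp2e1, so the direction of this step follows from it. All later times share the 0 h sections as their control, the 14 d sections are alone on slide 3, and the 0 h sections differed from each other more than those of 48 h, 72 h or 14 d did, by a root mean square log2 difference of 1.32 over genes whereas the sections of 48 h differed by 0.88, those of 72 h by 0.92 and pairs of 14 d by 0.35 to 0.45.

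Position in the tissue was not used to choose the cells. Each cell name gives a position, and among the 6 nearest neighbours of a pericentral cell 54.6% to 65.2% were pericentral cells too, depending on the section. For mid-lobule cells, those between 40% and 60% of the rank difference, the same figure was 0.877% to 2.95%. Glul-rim cells made up 7.30% to 13.1% of the neighbours of pericentral cells, and periportal cells, the lowest 20% of the rank difference, 0% to 0.0978%. The median distance from a pericentral cell to the nearest rim cell was 2.88 to 4.20 cell spacings, against 7.54 to 13.4 for mid-lobule cells. Pericentral cells therefore lay together, and nearer to rim cells than mid-lobule cells did, in all 13 sections. Of the rim cells themselves, 76.3% (section 1 at 72 h) to 99.6% (section 2 at 48 h) were within the top 20% of the rank difference. In sections 2 and 3 at 14 d periportal cells lay 6.78 and 6.60 spacings from a rim cell, nearer than mid-lobule cells (7.99 and 7.54). There 4.41% and 4.08% of the neighbours of rim cells were periportal, against 0% to 2.05% in the other sections. Some rim cells of these sections thus lay beside periportal cells.

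**Figure D1:**
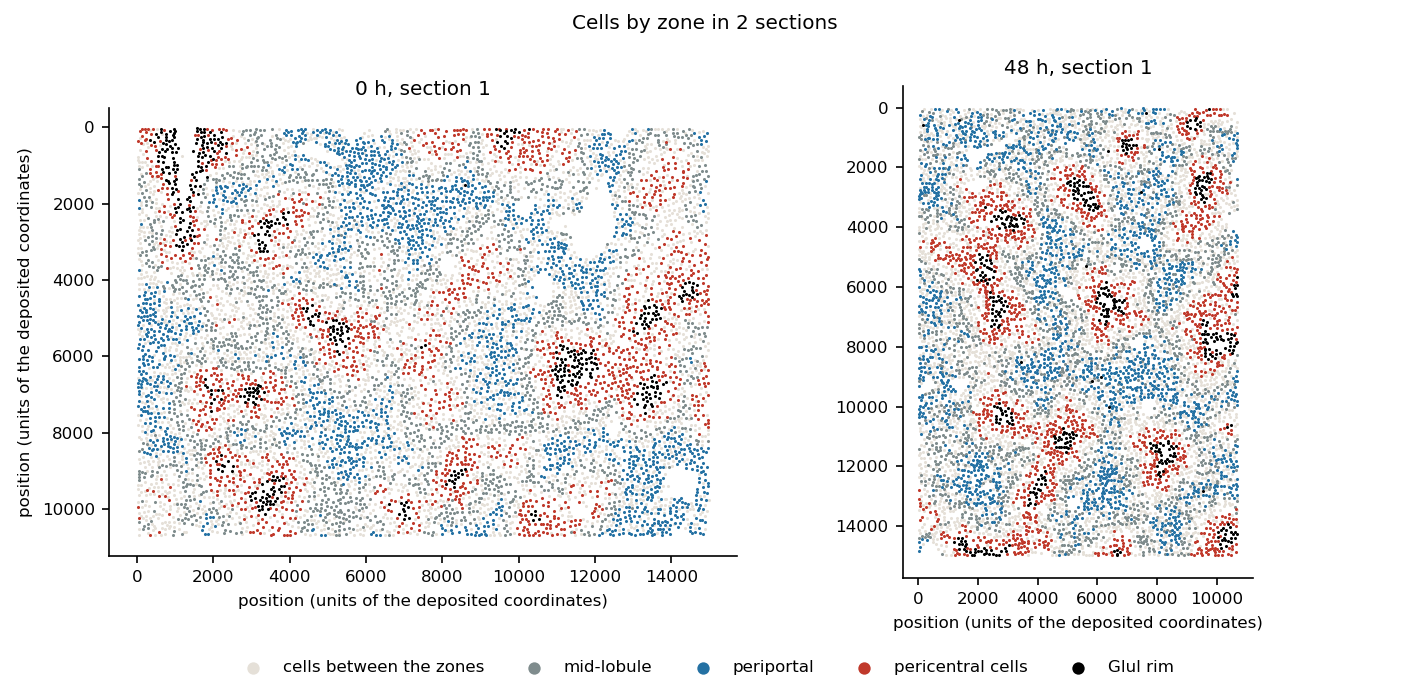
Each point is a cell of section 1 at 0 h (left) and section 1 at 48 h (right), at its position in units of the deposited coordinates on both axes, coloured by zone. Pericentral cells form bands next to the Glul rim, and among their nearest neighbours 55.1% and 62.7% are pericentral cells in these sections.

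Genes outside the rule that mark the central side were higher in these cells. Against mid-lobule cells of the same library, all 15 pericentral genes listed for this comparison were higher by edgeR's quasi-likelihood test, and 7 of 9 periportal genes were lower. Levels and differences here are from CPM over the counts outside Cyp2e1, Pck1 and Glul. Per cell the order was not kept in every section. Cldn2 stood at 0.496 and 0.239 against 0.308 and 0.199 at 0 h, but at 0.697 and 0.778 against 1.15 and 0.932 at 72 h. Cyp1a2, a drug-metabolizing cytochrome, stood at 8350 to 50183 CPM (median 20258) over 12 libraries of pericentral cells and at 1825 to 19204 CPM (median 5295) in mid-lobule cells, a log2 difference of 1.78 ± 0.16 (SE, adjusted p = 5.49e-09). Cyp27a1, which acts in bile acid synthesis, stood at 11070 to 47025 CPM (median 27435) against 5938 to 28183 CPM (median 14334), a difference of 0.90 ± 0.08 (adjusted p = 1.07e-08). Across libraries the ranges of both genes overlapped, but within libraries the pericentral cells were higher in CPM in 12 of 12. Per cell, Cyp1a2 was lower at 24 h (4.47 and 4.13 against 4.96 and 5.06) and Cyp27a1 at 6 mo (1.05 against 1.15). Both were higher per cell in all other sections. These markers are those the cell type is named for, and between 75.3% and 97.5% of the pericentral cells of a section held at least 1 Cyp1a2 count, against 36.7% to 91.0% of mid-lobule cells.

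Of 92 genes tested, 35 were higher (38.0%) and 36 lower (39.1%) in pericentral than in mid-lobule cells, which is 77.2% of the genes tested. Oat, an ornithine aminotransferase of central hepatocytes, stood at 10493 to 188599 CPM (median 33136) against 522 to 10123 CPM (median 2060) and was higher by 4.04 ± 0.12 in log2 (adjusted p = 1.64e-16). The lowest pericentral library lay above the highest mid-lobule library for this gene. Lgr5, a receptor for R-spondins, stood at 162 to 1161 CPM against 8.26 to 83.7 CPM and was higher by 3.36 ± 0.22, and Tbx3, a Wnt target transcription factor, was higher by 3.12 ± 0.14. Other central genes were higher by 2.64 ± 0.33 (Slc16a10, an aromatic amino acid transporter), 2.55 ± 0.27 (Axin2, a feedback inhibitor of Wnt signalling), 2.01 ± 0.15 (Lect2, a secreted protein) and 1.95 ± 0.15 (Gstm2, a glutathione transferase). Of 6 Wnt feedback genes 5 were higher, and Lgr4, a relative of Lgr5, was lower by 0.73 ± 0.13 (a log2 difference of -0.73). The median difference was 1.80 over the 15 pericentral genes and -1.15 over the 9 periportal genes, against -0.02 over all 92.

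Among genes lower in pericentral cells, Gls2, the glutaminase of portal hepatocytes, stood at 18.1 to 948 CPM (median 174) against 1791 to 5885 CPM (median 4059) in mid-lobule cells, a log2 difference of -4.25 ± 0.40. Hsd17b13, a lipid droplet protein, stood at 28.9 to 1451 CPM against 3469 to 14867 CPM, a difference of -4.17 ± 0.30. In both genes the libraries of the zones did not overlap. Igfbp2, a secreted binding protein of insulin-like growth factors, differed by -1.77 ± 0.19, and the urea cycle genes Ass1 and Arg1 differed by -1.57 ± 0.15 and -1.39 ± 0.14. The periportal list was not uniform, since Prodh, which breaks down proline, was higher by 1.28 ± 0.10 and Hpd, of tyrosine breakdown, by 0.79 ± 0.10. Scarcer genes among the 10 largest falls were Sox9 (-3.27 ± 0.30), Wnt10a (-3.06 ± 0.20), Wnt2b (-2.68 ± 0.32), Fzd3 (-1.85 ± 0.32) and Cldn7 (-1.64 ± 0.26). Cldn7 stood at 0.64 without cells rich in markers of other types, so that its direction rests on those cells.

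**Figure D2:**
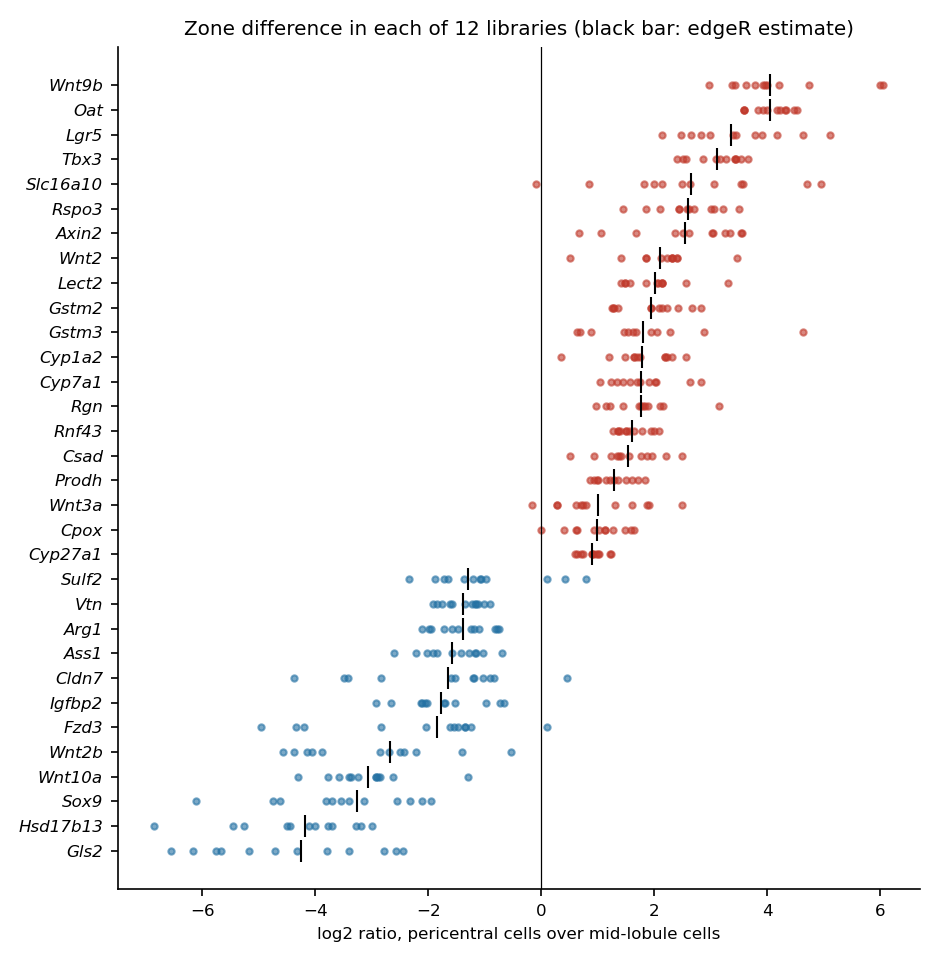
Each point is the log2 ratio of a gene's level in pericentral cells over mid-lobule cells in 1 of 12 libraries, for the genes with the largest differences, and the black bar is the edgeR estimate. Oat lies between 3.58 and 4.52 in every library and Gls2 between -6.55 and -2.44, while scarce genes such as Slc16a10 spread over several units.

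Transcripts of endothelial cells were counted inside the outlines of these cells. As CPM outside the 3 genes of the rule, all 4 endothelial genes of the panel were higher than in mid-lobule cells. These were the Wnt ligands Wnt9b (4.04 ± 0.22) and Wnt2 (2.10 ± 0.18), the R-spondin Rspo3 (2.59 ± 0.17) and the endothelial surface protein Pecam1 (0.44 ± 0.12). Per cell, the order of Pecam1 varied between sections. It stood at 0.407 and 0.624 at 0 h against 0.853 and 0.646 per mid-lobule cell, but at 1.56 against 1.11 in section 2 at 48 h. The summed level of the 4 endothelial genes was 0.609 and 0.932 counts per pericentral cell at 0 h, 1.99 and 2.39 at 24 h and 1.73 and 2.71 at 48 h. It was 3.29 and 1.93 at 72 h, 3.37 to 4.16 at 14 d, 1.53 at 3 mo and 1.28 at 6 mo. Per mid-lobule cell the sum was 0.993 and 0.703 at 0 h. It was lower there than in pericentral cells in all sections but section 1 at 0 h. Wnt9b was counted in 3.5% to 15.3% of pericentral cells and 0.1% to 2.1% of mid-lobule cells. Macrophage genes (Adgre1 and Lyz2, 2 of 4 listed) summed to 0.591 to 5.42 counts per pericentral cell, the stellate gene Lrat (1 of 3) to 0.417 to 2.36, the leukocyte gene Ptprc to 0.0784 to 0.755 and biliary genes (Sox9 and Cldn7, 2 of 5) to 0.00435 to 0.128. None of these markers was at 0 in all sections. Cells in which 6 such markers together reached 2% of the counts made up 5.74% and 13.2% of the pericentral cells at 0 h and 19.5% to 31.1% later. Among mid-lobule cells they made up 28.1% and 26.1% at 0 h and 21.3% to 47.4% later. The counts include Cyp2e1, whose share changed over time, so the limit of 2% was not equally strict at all times. Without the cells past this limit the difference was 3.28 for Wnt9b, 2.87 for Rspo3, 3.44 for Lgr5 and 3.98 for Oat, all still past the threshold. The 6 markers were Pecam1, Adgre1, Lyz2, Ptprc, Lrat and Sox9, and not Wnt9b, Wnt2 or Rspo3. Cells holding only the latter stayed in, and the part of endothelial transcripts in these differences was not tested.

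Against the Glul rim, pericentral cells had less of 5 of 6 Wnt feedback genes (Lgr4 was higher) and more of 6 of 9 periportal genes (Prodh was lower). Of 13 Wnt ligand genes tested 4 were lower and none higher, and of 10 Wnt receptor genes 4 were lower and 1, Lrp6, was higher. Of 87 genes tested, 22 were higher (25.3%) and 26 lower (29.9%), 55.2% of the genes tested. Cps1, the first enzyme of the urea cycle, stood at 40682 to 109442 CPM (median 79762) in pericentral cells and at 656 to 15490 CPM (median 3096) in the rim, a log2 difference of 4.28 ± 0.38 (adjusted p = 3.61e-07). The libraries of both zones were far apart for this gene. Igfbp2 (3.45 ± 0.26), Arg1 (3.23 ± 0.36), Ass1 (2.10 ± 0.20), Cyp8b1 of bile acid synthesis (1.59 ± 0.28) and Gls2 (1.28 ± 0.35) followed. Gls2 stood at -0.13 when the top 10% of the rank difference was used, so that its direction depends on the width of the zone.

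On the other side, Axin2 stood at 882 to 3157 CPM (median 2316) in pericentral cells and at 2630 to 6977 CPM (median 5413) in the rim, a difference of -1.27 ± 0.08 (adjusted p = 1.1e-09). It was lower in 12 of 12 libraries. Oat differed by -1.59 ± 0.14, Lgr5 by -1.17 ± 0.15, Tbx3 by -0.97 ± 0.09 and Cyp1a2 by -0.66 ± 0.07, also in 12 of 12 libraries each. Of the 15 pericentral genes 9 were lower than in the rim, 1 was higher (Csad, of taurine synthesis, 0.34 ± 0.13), and Cyp27a1 was higher in 7 of 12 libraries and did not pass. The endothelial genes were all lower than in the rim, by -2.72 ± 0.20 (Wnt9b), -2.11 ± 0.13 (Rspo3), -1.16 ± 0.12 (Pecam1) and -0.96 ± 0.13 (Wnt2). Their part in the differences of the hepatocyte genes was not tested.

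The pericentral cells themselves formed a gradient. Within each section they were split at the median distance to the nearest rim cell, and the share of each gene in the counts outside the 3 genes of the rule was compared between the near and the far cells, as a description. Of 66 genes with at least 1000 counts, 17 were higher near the rim in 13 of 13 sections (25.8%) and 11 were lower in 13 of 13 (16.7%). Lgr5 led, with a median log2 ratio of 1.39 and a range of 0.30 to 2.33, followed by Wnt9b (1.35), Oat (1.23), Rspo3 (0.94), Axin2 (0.87), Tbx3 (0.72), Rnf43, a ligase that removes Wnt receptors (0.59), and Cyp1a2 (0.58, range 0.30 to 0.93). For Oat the near cells held 4.63% and the far cells 1.97% in section 1 at 0 h, and 15.6% and 11.4% in section 1 at 24 h. Cps1 (-1.36), Igfbp2 (-1.29), Arg1 (-1.05) and Ass1 (-0.87) were lower near the rim in 13 of 13 sections, and Cps1 held 1.41% near and 7.28% far in section 2 at 48 h. Gls2 (-1.85) and the cyclin Ccnd1 (-0.63) were lower near the rim in 12 of 13 sections. Median counts per cell were 338.5 near and 303 far in section 1 at 48 h and 356.5 near and 274.5 far at 6 mo, but 635 near and 671 far in section 1 at 14 d and 498 near and 501.5 far in section 3, and the part of depth was not tested. In sections 2 and 3 at 14 d mid-lobule cells lay 7.99 and 7.54 spacings from a rim cell, less than in any other section, and 88.1% and 87.2% of their rim cells were in the top 20% of the rank difference. Periportal cells of these 2 sections lay nearer still, at 6.78 and 6.60 spacings.

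**Figure D3:**
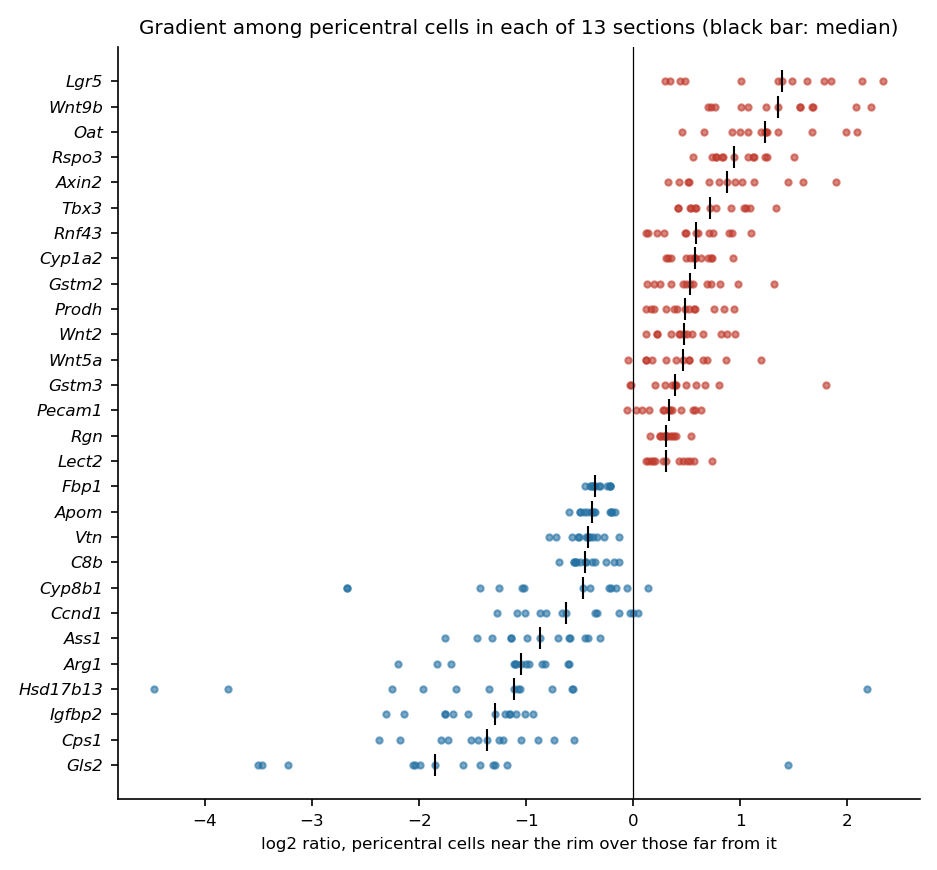
Each point is the log2 ratio of a gene's share in pericentral cells nearer to the Glul rim than the section's median over that in the farther ones, in 1 of 13 sections, and the black bar is the median. Lgr5, Oat and Axin2 lie right of 0 and Cps1, Arg1 and Ass1 left of it in all sections.

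At 24 h the pericentral cells held more transcripts of the cyclins Ccnd1 and Ccne1, the glutathione transferases Gstm2 and Gstm3, Oat and Lgr5 than at 0 h. Gstm1, another glutathione transferase, stood at -1.20 ± 0.95 and did not pass. The sections of 24 h carried the same slide position and were summed to 1 library, whose spread was taken to be that of the other times. Gstm3, a glutathione transferase, stood at 1.16 and 1.35 counts per cell at 0 h and at 19.1 and 11.6 at 24 h, a log2 change of 3.11 ± 0.28 (edgeR, adjusted p = 0.000182). Oat stood at 5.15 and 2.14 counts per cell and then at 33.2 and 33.5 (2.69 ± 0.62, adjusted p = 0.0232). Both 24 h sections were above both 0 h sections for these genes. Lack of overlap was also used to pick the named genes. In CPM, 35 of 90 genes lay above both 0 h sections at 24 h and 26 lay below both. The cyclin of early G1, Ccnd1, went from 0.297 and 0.342 to 1.93 and 1.12 counts per cell (1.75 ± 0.32), and Ccne1, of the entry into S phase, from 0.0426 and 0.00741 to 0.491 and 0.206 (3.42 ± 0.73). Both cyclins rose per mid-lobule cell too, Ccnd1 from 1.06 and 0.618 to 4.46 and 5.33 and Ccne1 from 0.0908 and 0.0126 to 0.529 and 0.569. In pericentral cells Gstm2 rose by 2.19 ± 0.26, Lgr5 by 1.93 ± 0.43, the ligand gene Wnt5a by 1.81 ± 0.43 and Alad, of heme synthesis, by 0.84 ± 0.22.

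Fewer genes fell at 24 h. Csad fell by 2.94 ± 0.82, from 0.198 and 0.0377 counts per cell to 0.0241 and 0.0169. Hsd17b13 fell by 2.73 ± 0.61, from 0.0253 and 0.0216 to 0.00657 and 0.00307. With 913 and 652 pericentral cells in the 24 h sections, this level rests on very few counts. The HDL enzyme gene Pon1 fell by 1.25 ± 0.22, from 7.23 and 6.44 to 4.71 and 3.48. The values per cell did not overlap for these genes, but none of these falls passed when scaled per cell (adjusted p = 0.0843, 0.0675 and 0.133). In all, 8 of 90 genes were higher (8.89%) and 4 lower (4.44%), 13.3% of the genes tested, or 8 and 3 outside the rule. Total-count scaling, which moved the median gene up by 0.77, gave 26 and 2, and leaving out section 1 of 0 h gave 13 and 7. Among the pericentral list 4 of 15 genes rose (Gstm2, Gstm3, Lgr5 and Oat) and Csad fell, while Cyp1a2 stood at -0.66 ± 0.32 and Cyp27a1 at -0.96 ± 0.29, neither past the threshold. Oat no longer passed without section 2 of 0 h (2.28, adjusted p = 0.0765) or section 2 of 48 h (2.46, adjusted p = 0.051), nor Ccne1 without the latter (3.16, adjusted p = 0.051). Lgr5 and Wnt5a did not pass with the slide as a block (adjusted p = 0.397 and 0.329), and Wnt5a did not pass without section 2 or section 3 of 14 d (1.81, adjusted p = 0.0518 and 0.0617). With the 14 d sections as 1 library 4 genes passed (Ccne1, Gstm2, Gstm3 and Oat), so that Ccnd1 and Lgr5 did not. Csad and Alad were lost in 9 and 5 of the fits that left out 1 section, at -3.21 to -2.86 and at 0.66 to 0.85.

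At 48 h Gstm3 and Ccnd1 were at their highest counts per cell of all times. Gstm3 stood at 31.3 in both sections, a change of 3.85 ± 0.26 (adjusted p = 9.68e-06). Gstm3 counts were found in every pericentral cell of section 1 and in 99.9% of those of section 2 at 48 h, and in 57.7% and 53.2% at 0 h. In section 1 at 48 h the Gstm3 share of a cell's counts was 3.71% at the 10th percentile of cells, 9.54% at the median and 16.2% at the 90th, so that the level was spread over the whole zone and still differed several-fold between cells. Ccnd1 stood at 3.76 and 3.47 counts per cell (2.72 ± 0.29, adjusted p = 0.000164) and Ccne1 at 0.473 and 0.349 (3.37 ± 0.66). No 48 h section overlapped the 0 h sections in either cyclin. In CPM the 48 h sections lay above both 0 h sections in 31 of 90 genes and below both in 14. Gstm2 rose by 2.21 ± 0.23, and Hsd17b13, low at 24 h, stood at 0.230 and 0.361 counts per cell, above both 0 h sections (2.85 ± 0.41, adjusted p = 0.00146).

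Of 9 periportal genes 3 fell at 48 h (G6pc, Cps1 and Hpd) and 1, Hsd17b13, rose. G6pc, the glucose-6-phosphatase of gluconeogenesis, went from 2.56 and 8.63 to 1.81 and 0.924 counts per cell, a change of -2.83 ± 0.72 on an uneven baseline. The complement gene C6 differed by -1.35 ± 0.25, Hpd and Cps1 by -1.03 each (SE 0.18 and 0.28) and Pon1 by -0.86 ± 0.17. Per cell these 4 stood at -0.56, -0.25, -0.23 and -0.06 and did not pass, and total-count scaling turned the direction of Hpd (0.18), Cps1 (0.19) and Pon1 (0.36). In all, 5 genes were higher (5.56%) and 6 lower (6.67%), 12.2% of the genes tested, or 5 and 5 outside the rule, against 59 and 1 with total-count scaling. Without section 1 or section 2 of 0 h 18 and 24 genes passed. Among the pericentral list Gstm2 and Gstm3 rose, 2 of 15, and of the 4 bile acid genes none passed, with Cyp8b1 at -4.16 ± 1.23 (adjusted p = 0.0717) and 1.04 and 0.0889 counts per cell at 0 h against 0.0159 and 0.0914. Ccne1 did not pass without section 1 of 48 h (2.67, adjusted p = 0.0548). G6pc did not pass with total-count scaling (-1.63), nor when the second 0 h section (-1.48), the second 48 h section (-2.31) or any 1 section of 72 h or 14 d (-2.83) was left out, and Cps1 did not pass without any 1 section of 0 h or 48 h or section 2 or 3 of 14 d (-1.24 to -0.92).

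**Figure D4:**
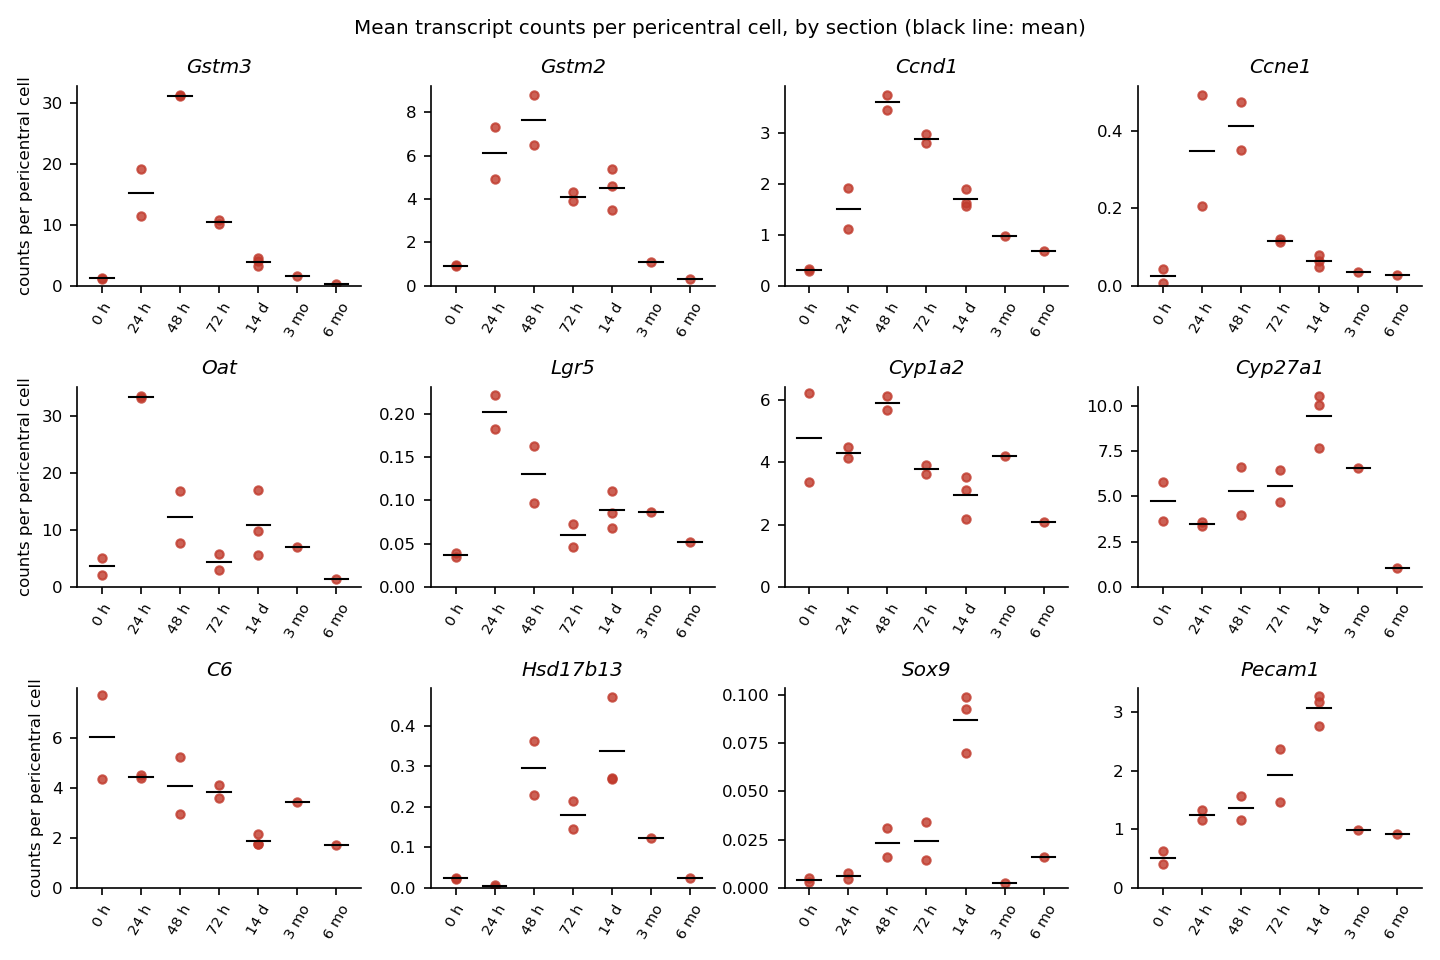
Each point is the mean transcript count per pericentral cell in 1 section, by time after surgery, for 12 genes, and the black line is the mean of the sections. Gstm3 and Ccnd1 are highest at 48 h, Oat and Lgr5 at 24 h, and Sox9 and Pecam1 at 14 d.

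At 72 h the same kinds of genes were still raised. Ccnd1 stood at 2.99 and 2.81 counts per cell (2.44 ± 0.28, adjusted p = 0.000708), Gstm3 at 10.8 and 10.2 (2.33 ± 0.25), Gstm2 at 4.32 and 3.91 (1.40 ± 0.23) and Hsd17b13 at 0.144 and 0.215 (2.23 ± 0.40). All 4 lay above both 0 h sections. In CPM 25 of 90 genes did so at 72 h, and 15 lay below both 0 h sections. Ccne1 stood at 0.113 and 0.120 counts per cell and did not pass. Lower were the complement genes C8b (-1.71 ± 0.37) and C6 (-1.34 ± 0.25) and the marker Cyp1a2 (-1.03 ± 0.26, adjusted p = 0.0447), which held 3.61 and 3.91 counts per cell against 6.20 and 3.37 at 0 h. Per cell the changes were -0.96, -0.64 and -0.35, and none passed. In all, 4 genes were higher (4.44%) and 3 lower (3.33%), 7.78% of the genes tested, and 13 and 0 with total-count scaling. Without section 1 or section 2 of 0 h 15 and 13 genes passed. Hsd17b13 did not pass without section 2 of 72 h (1.84, adjusted p = 0.0528), nor C6 without either 72 h section (-1.38 and -1.29), nor C8b without section 2 of 0 h (-1.22) or section 1 of 72 h (-1.39). Cyp1a2 did not pass without section 1 of 0 h (-0.70), section 1 of 48 h (-1.06), either 72 h section (-0.92 and -1.15) or any 1 section of 14 d (-1.15 to -1.03).

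At 14 d more genes passed against 0 h than at any other time. This time had 3 sections, against 1 or 2 libraries at the others. With the 14 d sections as 1 library, 4 genes passed at 14 d, fewer than at 48 h in the same fit. Of 3 complement and vitronectin genes 2 fell (C6 and C8b), as did both heme synthesis genes. Of 13 Wnt ligand genes tested 4 rose, of 10 Wnt receptor genes 2, and both biliary genes did. Of 9 periportal genes 3 rose (Fbp1, Gls2 and Hsd17b13) and 2 fell (G6pc and Hpd), and of 15 pericentral genes 1 rose (Gstm2) and 1 fell (Cyp1a2). In all, 16 of 90 genes were higher (17.8%) and 11 lower (12.2%), 30.0% of the genes tested, or 16 and 10 outside the rule, and 45 and 4 with total-count scaling, which moved the median gene up by 1.05. C6 went from 7.69 and 4.34 to 1.75, 2.14 and 1.76 counts per cell (-2.98 ± 0.23, adjusted p = 5.1e-05). G6pc went from 2.56 and 8.63 to 1.08, 1.23 and 1.11 (-3.71 ± 0.64). The 14 d sections lay below both 0 h sections in these genes, and both passed under total-count and per-cell scaling. In CPM 24 of 90 genes lay below both 0 h sections in all 14 d sections, and 29 lay above. Cyp1a2 stood at 3.54, 3.11 and 2.17 counts per cell against 6.20 and 3.37, with overlap (-2.02 ± 0.23, adjusted p = 0.000428), and at -0.70 when scaled per cell, where it did not pass (adjusted p = 0.0655). Cyp27a1, the other named marker, stood at 7.67 to 10.5 counts per cell in the 3 sections against 5.81 and 3.62, and its scaled change was -0.32 ± 0.21 with TMM scaling and 1.00 per cell, so that its direction depends on the scaling.

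Other falls at 14 d also depended on the scaling. Cpox (-1.62 ± 0.26) and Alad (-0.56 ± 0.16), both of heme synthesis, stood at -0.32 and 0.79 per cell. Znrf3, a ligase that removes Wnt receptors (-1.58 ± 0.29), and the fatty acid elongase Elovl2 (-1.34 ± 0.28) stood at -0.28 and -0.03. C8b (-1.19 ± 0.32), the growth factor gene Igf1 (-0.87 ± 0.23) and Hpd (-0.59 ± 0.16) stood at 0.19, 0.44 and 0.75. Of the 10 falls outside the rule, only those of C6 and G6pc passed under all scalings tried.

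Of the 16 rises at 14 d, 14 passed under all scalings. Because total-count and per-cell scaling moved the median gene up, passing under them is weak support for a rise. Sox9, a transcription factor of bile duct and progenitor cells, stood at 0.00494 and 0.00309 counts per cell at 0 h and at 0.0699, 0.0988 and 0.0929 at 14 d (3.11 ± 0.55, adjusted p = 0.00547). Gls2 went from 0.0105 and 0.0185 to 0.223, 0.304 and 0.246 (2.78 ± 0.63), and Hsd17b13 from 0.0253 and 0.0216 to 0.272, 0.470 and 0.269 (2.49 ± 0.39). The groups were apart in these genes by several-fold, although each remained below its level in mid-lobule cells. Sulf2, a heparan sulfatase (3.07 ± 0.74), and the ligand genes Wnt11 (2.87 ± 0.73) and Wnt7a (2.69 ± 0.69) stood under 0.07 counts per cell in every section. Wnt16 had 74 counts in 6423 cells at 14 d and 1 count in 3239 cells at 0 h, a ratio per cell of 37.3 (exact 95% interval 6.49 to 1494, for counting error only). Fzd2, a Wnt receptor, had 93 counts at 14 d and none at 0 h, at least 15.6-fold above a floor of 3 counts over the 0 h cells. Mid-lobule cells also gained Fzd2 (0 and 0 to 0.0342, 0.0540 and 0.0197 per cell) and Wnt16 (0.00340 and 0.000934 to 0.0189, 0.0303 and 0.0204). Sulf2 (0.00194 and 0.00140 to 0.127, 0.149 and 0.0875), Wnt11 (0.0112 and 0.00187 to 0.0467, 0.0770 and 0.0731) and Wnt7a (0.00146 and 0.00280 to 0.0220, 0.0390 and 0.0187) rose per mid-lobule cell too. At 14 d 63.7%, 63.4% and 71.8% of periportal cells held no Cyp2e1 count, against 99.2% to 100% in the other sections. The 14 d sections are alone on slide 3, so time and slide cannot be told apart. Ccnd1 was still higher at 1.62, 1.90 and 1.58 counts per cell (1.06 ± 0.25), as was Gstm2 (0.90 ± 0.21), while Gstm3 stood at 4.66, 4.05 and 3.20 counts per cell and at 0.30 ± 0.22 with TMM scaling.

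Markers of other cells also stood higher per cell at 14 d. Pecam1 went from 0.407 and 0.624 to 3.18, 3.27 and 2.75 counts per pericentral cell (1.19 ± 0.32), and from 0.853 and 0.646 to 3.23, 3.59 and 2.96 per mid-lobule cell. Both biliary genes of the panel, Sox9 and Cldn7 (1.96 ± 0.56), rose in pericentral cells. The macrophage genes summed to 0.591 and 1.11 counts per cell at 0 h and to 4.25, 5.42 and 3.77 at 14 d, and Ptprc went from 0.0784 and 0.192 to 0.613, 0.755 and 0.486, while neither Adgre1, Lyz2 nor Ptprc passed. Their part in the changes was not tested. Without cells rich in markers of other types, which leaves out cells by their Pecam1 and Sox9 counts, Pecam1 stood at -0.31, Gpc1, a heparan sulfate proteoglycan (1.51 ± 0.39), stood at 0.54, and Wnt16 and Fzd2 did not pass. Sox9 (3.46), Gls2 (3.28), Hsd17b13 (2.92) and Cldn7 (2.33) passed without those cells. With the 14 d sections as 1 library, 4 genes passed, C6 (-2.87), Hsd17b13 (2.63), Sox9 (3.23) and Cyp1a2 (-1.94), and without section 2 or section 3 of 14 d 14 and 15 genes passed. Gls2 did not pass without section 1 of 0 h (2.31, adjusted p = 0.0515), nor Ccnd1 without section 2 or 3 of 14 d (1.05 and 1.01), nor Pecam1 and Cldn7 without section 1 of 0 h (0.81 and 1.43) or section 2 or 3 of 14 d. Of the 26 genes outside the rule, 9 passed whichever section was left out: C6, G6pc, Cyp1a2, Cpox, Znrf3, Sox9, Hsd17b13, Gstm2 and Fzd1. Of the remaining rises, Fzd1 stood at 1.49 ± 0.30, Wnt5a at 1.10 ± 0.35 and the gluconeogenesis gene Fbp1 at 0.70 ± 0.21. Fzd1 also rose per mid-lobule cell, from 0.0923 and 0.117 to 0.863, 0.798 and 0.698.

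At 3 mo no gene passed (0 of 90, 0.0%), with 8 at an unadjusted p under 0.05 and 6 by DESeq2, and 6 passed without section 1 of 0 h. Gstm3 stood at 1.71 counts per cell (-0.05 ± 0.29), Oat at 7.01 (0.51 ± 0.63), Cyp1a2 at 4.20 (-0.63 ± 0.32) and Cyp27a1 at 6.58 (0.02 ± 0.28). Ccnd1 stood at 0.987 counts per cell, above both 0 h sections, at 1.13 ± 0.32 (adjusted p = 0.205). With 1 section the time has no spread of its own, and that of the other times was used.

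At 6 mo, also 1 section, whose spread was taken to be that of the other times, 5 genes were higher (5.56%) and 9 lower (10%), 15.6% of the genes tested. Cyp27a1 stood at 1.05 counts per cell against 5.81 and 3.62 (-1.86 ± 0.31, adjusted p = 0.0107), Gstm3 at 0.357 against 1.16 and 1.35 (-1.54 ± 0.31), Gstm2 at 0.310 against 0.905 and 0.970 (-1.32 ± 0.29), and the calcium-binding protein gene Rgn at 1.38 against 5.78 and 3.61 (-1.45 ± 0.29). C6, Cpox, Igf1, Arnt and Pon1 were lower too (-1.48 to -0.90), so that 4 of 15 pericentral genes fell and 1, Slc16a10 (3.35 ± 0.70), rose. Other rises were Wnt10a (3.24 ± 0.63), Fzd6 (2.97 ± 0.49), Lrp6 (1.48 ± 0.33) and Ccnd1 (1.38 ± 0.32), with Slc16a10 and Fzd6 under 0.03 counts per cell. This section was the shallowest, at a median of 310 counts per cell, and only 83.0% of its cells had 100 counts, against 90.8% to 97.1% elsewhere. With the slide as a block, Cyp27a1 (-1.62) and Gstm3 (-1.61) alone passed. No gene passed with the 14 d sections as 1 library (14 at an unadjusted p under 0.05), 29 passed when the second 0 h section was left out and 9 when the second 14 d section was. Ccnd1 did not pass without that section (1.38, adjusted p = 0.0523), and Arnt, Cpox, Igf1 and Pon1 were lost in 7, 5, 7 and 4 of the fits that left out 1 section.

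Whether pericentral cells changed differently from mid-lobule cells was tested as the difference of the changes against 0 h, from counts without the 3 genes of the rule. At 48 h Gstm3 went from 0.225 and 0.0658 to 12.0 and 16.7 counts per mid-lobule cell, an even larger relative rise (5.86 ± 0.53) than in pericentral cells, and the difference was -2.46 ± 0.49 (adjusted p = 0.0352). That difference did not pass when the second section of 48 h, the second of 72 h or the third of 14 d was left out. It was -3.05 ± 0.49 at 72 h, where it did not pass without either 72 h section, and -2.16 ± 0.45 at 14 d, and Gstm2 differed by -1.07 ± 0.25 at 48 h and -1.45 ± 0.22 at 14 d. Pericentral cells were still higher in Gstm3 in 12 of 12 libraries, by 0.63 to 4.64 in log2, so the zones came closer to each other without changing order. Hsd17b13 went the other way, with a larger relative rise in pericentral cells by 1.63 ± 0.21 at 48 h, 1.30 ± 0.22 at 72 h and 2.21 ± 0.20 at 14 d (adjusted p = 2.2e-05), the second of which did not pass without section 2 of 72 h. Per pericentral cell it went from 0.0253 and 0.0216 at 0 h to 0.230 and 0.361 at 48 h. Per mid-lobule cell it went from 1.59 and 1.01 to 3.73 and 4.61, so more counts were added there.

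**Figure D5:**
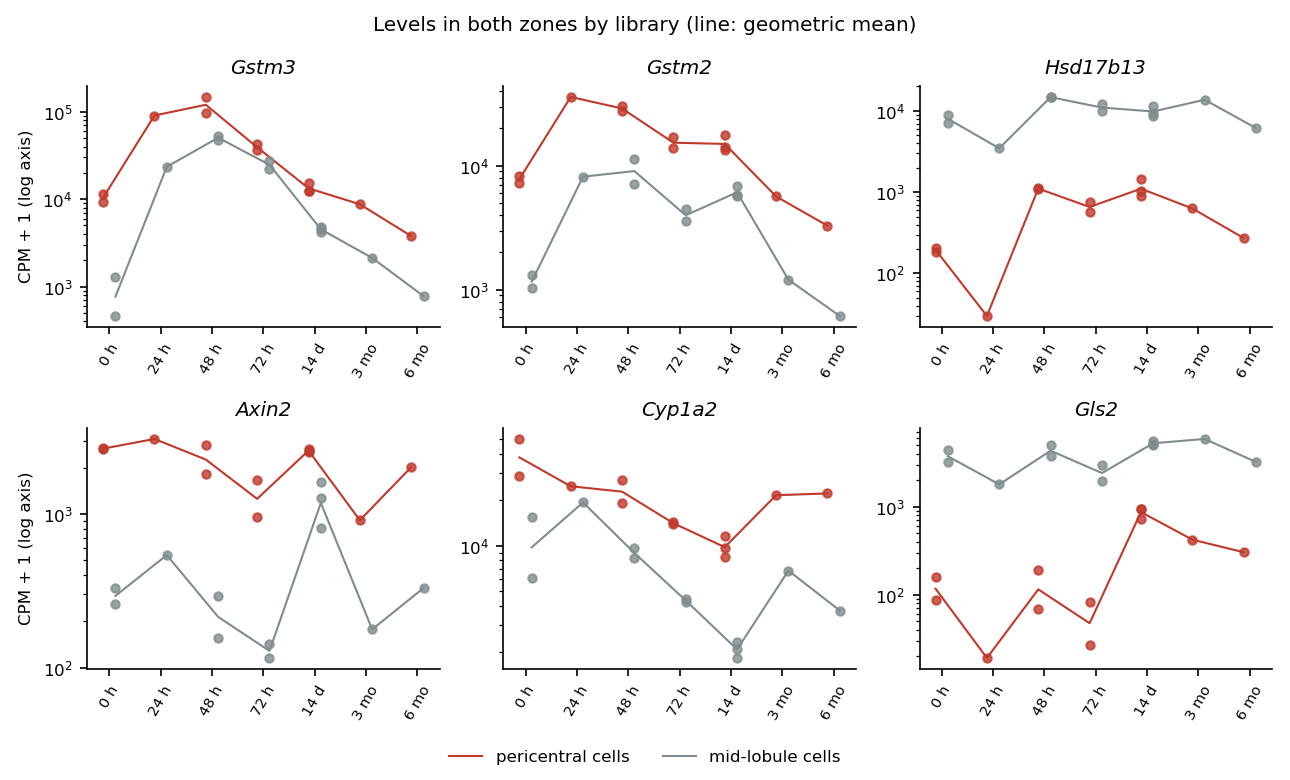
Each point is the level of a gene in 1 library, as CPM + 1 over counts outside Cyp2e1, Pck1 and Glul on a log axis, in pericentral and mid-lobule cells by time after surgery, and lines join geometric means. In Gstm3 and Gstm2 the zones are farther apart at 0 h than at 48 h, and in Axin2 the mid-lobule cells come near the pericentral cells at 14 d.

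The largest number of such differences was at 14 d, 9 higher (9.78%) and 5 lower (5.43%) of 92 genes, 15.2% of the genes tested. That time also had the most sections, and the part of their number in this count was not tested. Axin2 stood at 0.785, 0.852 and 0.662 counts per pericentral cell and at 0.434, 0.703 and 0.650 per mid-lobule cell, against 0.325 and 0.316 and against 0.0457 and 0.0472 at 0 h. With TMM scaling mid-lobule cells thus gained Axin2 (2.09 ± 0.44) while its change in pericentral cells was -0.09 ± 0.32, a difference of -2.06 ± 0.32 (adjusted p = 0.00147). Counts of Axin2 per pericentral cell rose as well, so the lack of a change there depends on the scaling. The zones overlapped in counts per cell at 14 d and were well apart at 0 h. Gls2 (2.36 ± 0.41), Sox9 (1.88 ± 0.49), the macrophage genes Adgre1 (1.74 ± 0.28) and Lyz2 (1.48 ± 0.27), Gpc1 (1.15 ± 0.24) and Cps1 (1.07 ± 0.22) had more positive log2 changes in pericentral cells, and the Wnt receptor gene Fzd7 differed by -1.11 ± 0.23. In counts, Gls2 gained more per mid-lobule cell, from 0.771 and 0.458 at 0 h to 2.71, 3.11 and 2.08. Without cells rich in markers of other types, Adgre1 stood at 1.40, Lyz2 at 0.94 and Sox9 at 2.99. At 24 h 2 genes passed (2.17%), 1 in each direction (1.09%): Cyp1a2 differed by -1.61 ± 0.25, with 4.47 and 4.13 counts per pericentral cell and 4.96 and 5.06 per mid-lobule cell at that time against 6.20 and 3.37 and against 2.72 and 0.878 at 0 h, and Fads1, a fatty acid desaturase, differed by 1.02 ± 0.21. In Cyp1a2 the zonal order per cell was turned at 24 h, although not in CPM.

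At 48 h 3 genes were higher (3.26%) and 5 lower (5.43%) in this test, 8.70% in all, and at 72 h 2 (2.17%) and 4 (4.35%), 6.52% in all. These included Lyz2 (1.14 ± 0.29 and 1.13 ± 0.29) and Cpox (-0.76 ± 0.20 and -1.18 ± 0.20) at both times, and Lyz2 without cells rich in markers of other types stood at -0.19 and 0.47. Also past the threshold at 48 h were Fads1 (0.61 ± 0.17), Fzd8 (-1.08 ± 0.27) and C6 (-0.76 ± 0.19). The counts depended on single sections. Without section 2 of 0 h 21, 20, 17 and 38 genes passed at 24 h, 48 h, 72 h and 14 d, and without section 1 of 0 h 7, 10, 11 and 19. At 24 h 1 gene passed without section 3 of 14 d or section 2 of 72 h, and 4 without either 48 h section. At 48 h 1 gene passed without section 3 of 14 d or section 2 of 72 h, leaving out section 1 of 72 h gave 3, and leaving out section 1 or 2 of 14 d or the 3 mo section gave 5. At 72 h 1 and 0 genes passed without its own section 1 and section 2, 15 and 17 without section 1 and section 2 of 48 h, and 12 without the 6 mo section. At 14 d 32 passed without the 6 mo section, 26 and 24 without its section 1 and section 2, and 21 without either 48 h section. Under all alternatives tried, the difference passed for Cyp1a2 at 24 h, Hsd17b13 at 48 h, and Adgre1, Axin2, Gls2, Gstm2, Gstm3, Hsd17b13 and Lyz2 at 14 d.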

How the data were processed

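Per the labels, transcripts of 100 genes were imaged by Molecular Cartography in 13 sections. The authors deposited a table per section of transcript counts per gene and segmented cell; the segmentation and decoding settings are not given in the sources used here. No per-sample column was left unused (0). A gene absent from a table was set to 0 there. Here, cells under 100 counts were left out, zones were set by rank as described, and raw counts were summed per section and zone. The 24 h sections, which carry the same slide position and no number, were summed, giving 12 libraries. Genes with 10 counts in 2 libraries were tested with edgeR 4.0.16 (TMM, robust quasi-likelihood F test, Benjamini-Hochberg, threshold 0.05) in R 4.3.3; zone fits had the library as a block and left out Cyp2e1, Pck1 and Glul. SE is the log2 change over the root of F. Alternatives were DESeq2 1.42.0, other scalings, filters, zone limits and blocks, and leaving out each section. The fits were tested on simulated data. The members, gene lists and tests were chosen with earlier results of these data known. Named genes were, per time, up to 8 rises and 8 falls whose libraries did not overlap 0 h, up to 2 further genes of each list by smallest p, and 11 genes named throughout; per zone comparison, up to 10 each way, and for zone by time up to 6.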

Additional observations from a re-analysis of the deposited data

Results flagged for a closer look

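A test of the difference of changes, pericentral minus mid-lobule cells and later time against 0 h, set the following genes apart; all values are log2 differences from edgeR, and the changes share the 0 h sections. At 24 h these were Fads1 at 1.02 and Cyp1a2 at -1.61. At 48 h Hsd17b13 stood at 1.63, Lyz2 at 1.14 and Fads1 at 0.61, and Gstm3 at -2.46, Fzd8 at -1.08, Gstm2 at -1.07, C6 at -0.76 and Cpox at -0.76. At 72 h Hsd17b13 stood at 1.30 and Lyz2 at 1.13, and Gstm3 at -3.05, Cldn7 at -2.98, Cpox at -1.18 and C8b at -0.72.

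At 14 d the differences were positive for Gls2 (2.36), Hsd17b13 (2.21), Sox9 (1.88), Adgre1 (1.74), Lyz2 (1.48), Gpc1 (1.15), Cps1 (1.07), Vtn (0.56) and Fbp1 (0.51). They were negative for Gstm3 (-2.16), Axin2 (-2.06), Gstm2 (-1.45), Fzd7 (-1.11) and Rnf43 (-0.60). Rnf43 stood at -0.15 and Cldn7 at -1.73 without cells rich in markers of other types, and neither passed.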

How the results depend on the processing

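Counts of genes that passed moved by over 1.5 times as follows, and the cause was not tested. Against 0 h, 12 genes at 24 h became 4 with the 14 d sections as 1 library, 22 with the 24 h sections as 2 libraries and 28 with total-count scaling. At 48 h 11 became 7 with 14 d as 1 library, 20 by DESeq2, 40 per cell and 60 with total-count scaling. At 72 h 7 became 17, 21 and 13 by DESeq2, per cell and with total-count scaling. At 14 d 27 became 4 with 14 d as 1 library, 58 per cell, 49 with total-count scaling and 12 with the replicate block. At 3 mo 0 became 6 by DESeq2, 1 per cell and 1 with the slide as a block. At 6 mo 14 became 0 with 14 d as 1 library, 2 with the slide as a block, 9 with the top 10% of the rank difference and 9 with total-count scaling.

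For the zone difference over time, 2 genes at 24 h became 17 with 24 h as 2 libraries, 10 by DESeq2, 1 with total-count scaling and 6 without cells rich in markers of other types, an alternative chosen after seeing the data. At 48 h 8 became 13 with the rule's genes kept in, 18 by DESeq2, 3 with 200 counts per cell and 5 with total-count scaling. At 72 h 6 became 12 with 24 h as 2 libraries, 14 with the rule's genes, 11 with no filter, 12 with the top 10%, 3 with total-count scaling and 11 without marker-rich cells. At 14 d 14 became 23 with the rule's genes, 32 with 200 counts per cell and 36 without marker-rich cells.

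Leaving out 1 section gave 44 to 52 genes against the rim, 69 to 72 against mid-lobule cells, and 8 to 20, 9 to 24, 5 to 15, 14 to 27, 0 to 6 and 9 to 29 from 24 h to 6 mo. For the zone difference it gave 1 to 21, 1 to 20, 0 to 17 and 10 to 38.

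Directions turned with total-count scaling at 48 h for Cps1 (0.19), Cyp1a2 (0.76), Hpd (0.18) and Pon1 (0.36), and at 14 d for Alad (0.50), Axin2 (0.96), Cyp27a1 (0.72), Hpd (0.46), Igf1 (0.19) and Lgr5 (0.96). Per cell at 14 d they turned for Alad (0.79), Axin2 (1.26), C8b (0.19), Cyp27a1 (1.00), Hpd (0.75), Igf1 (0.44) and Lgr5 (1.26). Without marker-rich cells they turned for Pecam1 at 14 d (-0.31), Lyz2 in the zone difference at 48 h (-0.19), and Cldn7 (0.64), Ptprc (0.16) and Wnt4 (0.33) against mid-lobule cells. Against the rim they turned with the top 10% for Cpox (0.076), Gls2 (-0.13) and Rgn (0.080), and Rgn ran from -0.17 to 0.029 when 1 section was left out. Of 6076 alternative values of single genes, 2294 kept their side of the threshold, 228 lost the call and 28 gained it under other settings, and 3170, 320 and 9 did so when 1 section was left out. Among the values that kept their side, 82 that passed under neither setting changed sign.

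Replicate numbers did not pair the samples: deviations of same-numbered sections correlated at -0.48, 0.00012 and -0.064, and with the replicate block 8, 6 and 12 genes passed at 48 h, 72 h and 14 d. Relative to TMM, total-count scaling moved the median gene by 0.77, 1.21, 0.47, 1.05, 0.40 and 0.15 from 24 h to 6 mo, and per-cell scaling by 0.54, 0.78, 0.71, 1.34, 0.47 and -0.30. Depth limits the scarce genes, such as Fzd2 with 0 counts in 3239 cells at 0 h.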
